A study of Mus musculus with 18 samples.

Results

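Transcripts of 10 integrin subunit genes were measured in mouse embryonic fibroblasts (MEFs) carrying an empty vector or an oncogenic RAS, with or without the ribosomal S6 kinases. The genes were chosen by name as subunits of fibroblast adhesion receptors, with earlier results of these data known. The members are Itga1, Itga2, Itga3, Itga5, Itga6, Itga8, Itga11, Itgav, Itgb1 and Itgb3. They are 10 of the 55401 gene identifiers in the count table and 10 of the 27 integrin subunit genes looked for in it, and each of them passed the filter on low counts in both series.

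The study asked whether the S6 kinases S6K1 and S6K2, encoded by Rps6kb1 and Rps6kb2, shape the secretory programme of senescent cells. RNA-seq covered 18 cultures in 6 groups of 3 libraries, split over 2 genetic series. In the S6K1 series the groups were S6K1 wild-type cells with empty vector (WT EV), the same genotype with constitutively active HRAS (WT RAS), and S6K1 knockout cells with HRAS (KO RAS). The S6K1/S6K2 series, called the second series, repeated the 2 WT groups beside cells without both kinases that carried HRAS (DKO RAS). MEFs are primary cells grown from mid-gestation embryos without head and viscera, so every culture was a mixed primary population rather than 1 clone. Empty vector and HRAS were delivered by retrovirus, from different vector backbones, and transduced cells were selected with puromycin. S6K1 WT and KO embryos were littermates, whereas the DKO embryos came from other parents than their WT controls. Knockout cells with empty vector were not analysed here, so loss of the kinases was compared under RAS only. The deletions are germline and present in all cells of a culture.

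Total counts per library ran from 8319445 to 14402442. Fibroblast markers (Col1a1, Vim, Pdgfrb and 7 others) were above the floor of 3 counts in all 18 libraries, with a summed level of 30041 to 48271 CPM (counts scaled to a common library size) in the EV libraries and 13279 to 18128 in the RAS libraries. Macrophage markers were also present, with a summed level of 74.2 to 3168 CPM, so the cultures held transcripts of more than 1 cell type. Hras rose in the RAS libraries, by 0.93 on the log2 scale in the S6K1 series and 0.75 in the second. Rps6kb1 was lower by 1.17 on the log2 scale in KO RAS than in WT RAS (adjusted p = 0.234, edgeR, and 0.000101 with the replicate number as a block). It fell by 1.11 in DKO RAS (adjusted p = 0.00908, edgeR), where Rps6kb2 fell by 3.18.

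Integrins are cell surface receptors built from 1 alpha and 1 beta chain, which bind extracellular matrix outside the cell and link to the actin cytoskeleton inside it. The beta 1 chain (Itgb1) pairs with many alpha chains. With alpha 1 (Itga1), alpha 2 (Itga2) or alpha 11 (Itga11) it forms collagen receptors, with alpha 5 (Itga5) or alpha 8 (Itga8) receptors for matrix proteins that carry the arginine-glycine-aspartate motif, such as fibronectin, and with alpha 3 (Itga3) or alpha 6 (Itga6) laminin receptors. Alpha v (Itgav) pairs with beta 1, beta 3 (Itgb3) and further beta chains and binds fibronectin, vitronectin and latent TGF-beta. Fibroblasts use these receptors to hold, sense and remodel their matrix.

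In RefSeq GRCm38.p6 the genes lie on 6 chromosomes. Itga2 (chr13:114833081-114932100) and Itga1 (chr13:114958079-115101964) are neighbours on the minus strand, 25978 bases apart, while Itga8 (chr2:12106632-12301985), Itga6 (chr2:71786886-71858427) and Itgav (chr2:83722303-83806917) share chromosome 2 at a distance. Itga3 (chr11:95044475-95076844) and Itgb3 (chr11:104608000-104670476) are both on chromosome 11. The others are Itga11 (chr9:62677855-62783979), Itga5 (chr15:103344286-103366791) and Itgb1 (chr8:128685654-128733579). Exons of Itga8 and Itgav overlap exons of antisense long noncoding genes, E030013I19Rik with at most 12 counts in any library and Gm13684 with 0 in all of them, and Itga1 encloses Pelo without shared exons. Whether the counting used the strand is not given in the sources used here.

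The 250 bases before the annotated start are shown for 4 members. They are the member with the steepest rise (Itga2) and the member with the steepest fall (Itga11). The others are the alpha member with the highest mean level per exon length (Itga5) and the most abundant beta member (Itgb1). Without division by length Itgav stood above Itga5 in some groups, with mean levels of 520 and 439 CPM (counts scaled to a common library size) in WT EV of the S6K1 series. The sequences are from RefSeq GRCm38.p6, 5′ to 3′ on the strand of the gene, with matches to the Sp1 box GGGCGG on either strand in capitals. The windows are chr13:114932101-114932350 (minus strand), chr9:62677605-62677854 (plus strand), chr15:103366792-103367041 (minus strand) and chr8:128685404-128685653 (plus strand).
Itga2: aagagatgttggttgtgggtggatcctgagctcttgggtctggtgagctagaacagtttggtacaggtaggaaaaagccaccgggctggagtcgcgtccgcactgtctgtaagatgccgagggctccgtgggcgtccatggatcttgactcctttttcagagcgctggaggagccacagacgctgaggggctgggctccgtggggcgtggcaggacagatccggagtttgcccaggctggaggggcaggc
Itga11: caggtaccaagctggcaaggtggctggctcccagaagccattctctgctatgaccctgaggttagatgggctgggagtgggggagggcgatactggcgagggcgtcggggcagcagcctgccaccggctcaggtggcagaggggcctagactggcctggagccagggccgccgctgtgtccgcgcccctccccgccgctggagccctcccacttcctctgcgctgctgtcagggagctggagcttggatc
Itga5: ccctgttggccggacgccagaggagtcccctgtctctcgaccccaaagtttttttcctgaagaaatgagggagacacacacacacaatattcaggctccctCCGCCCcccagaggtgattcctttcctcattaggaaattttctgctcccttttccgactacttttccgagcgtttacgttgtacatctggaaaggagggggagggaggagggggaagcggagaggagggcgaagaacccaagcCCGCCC
Itgb1: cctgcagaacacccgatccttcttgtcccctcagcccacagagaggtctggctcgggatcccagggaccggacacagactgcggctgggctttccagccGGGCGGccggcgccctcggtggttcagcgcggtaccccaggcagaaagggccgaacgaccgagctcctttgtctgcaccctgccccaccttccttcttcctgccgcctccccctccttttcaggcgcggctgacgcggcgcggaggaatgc

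RefSeq promoters were matched for 8 of the 10 members, not for Itga6 and Itgb3. Itgb1 held 1 Sp1 box, 151 to 146 bases before the start, and Itga5 held 2, at 149 to 144 and at 6 to 1 bases before it. The box occurs in 32.7% of all 32851 RefSeq windows of that length. Itga3 held 3 Sp1 boxes and 1 ETS motif (CCGGAAG, in 6.91% of windows, 89 to 83 bases before the start) in the first of its 2 windows, which is not printed because it runs into the gene's own span. The AP-1 motif TGANTCA (6.75% of windows), the CRE motif TGACGTCA (1.55%) and the TATA motif TATAAA (12.4%) had no match in any of the members' windows, searched on both strands. Neither Itga2 nor Itga11 held a match to any of these 5 motifs.

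Between WT EV and WT RAS cells, the collagen receptor chain Itga2, the laminin receptor chains Itga3 and Itga6 and the beta chain Itgb3 rose in both series, and the collagen receptor chain Itga11 fell in the S6K1 series. Within the S6K1 series 7 of the 10 members changed between WT RAS and WT EV (adjusted p under 0.05, edgeR quasi-likelihood test), against 13.2% of all 14036 genes tested. It was 4 higher (7.15% of all genes were) and 3 lower (6.09%). The 4 that rose were Itga2, Itga3, Itga6 and Itgb3, and the 3 that fell were Itga1, Itga8 and Itga11. Within the S6K1/S6K2 series 7 of 10 changed, against 26.3% of 13881 genes. All 7 were higher, against 13.5% of all genes higher and 12.7% lower, namely Itga2, Itga3, Itga5, Itga6, Itgav, Itgb1 and Itgb3. The median log2 fold change of the 10 members was 0.40 in the S6K1 series and 1.16 in the S6K1/S6K2 series, beside 0.00 and -0.02 over all genes. Because the members were chosen with earlier results of these data known, these shares describe them and are not a test. In bulk RNA, fewer cells of a type and less RNA per cell cannot be told apart, and the p-values measure the spread between these cultures.

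**Figure D1:**
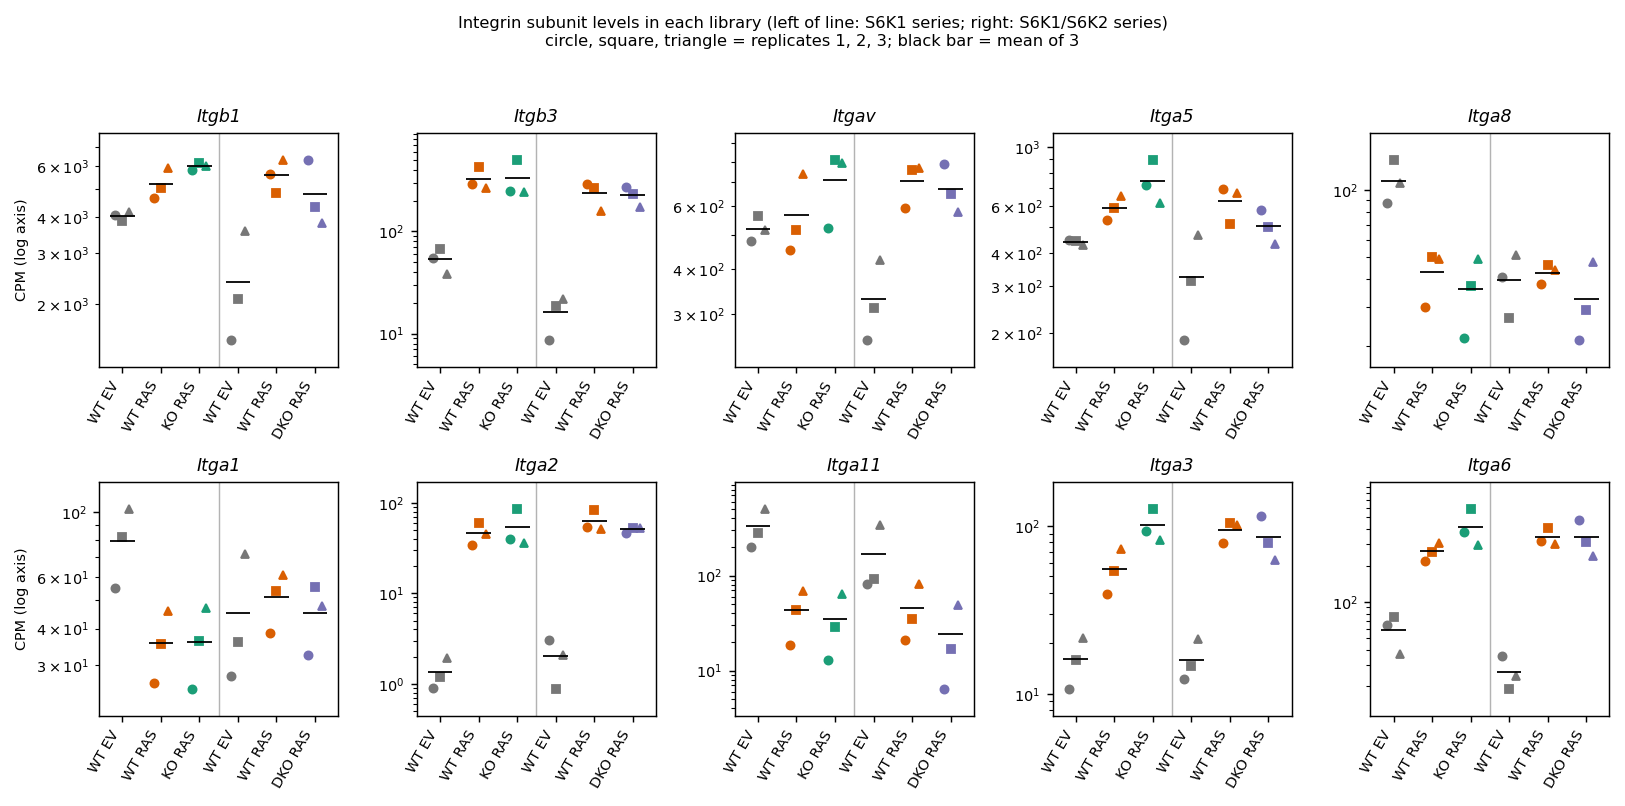
Level of each integrin subunit gene in CPM (log axis, scaled within each series) in the 18 libraries, by group, with symbols for replicates 1 to 3 and a black bar for the mean of 3. Itga2, Itga3, Itga6 and Itgb3 are higher in every RAS library than in every EV library of the same series, and Itga11 is lower in every WT RAS library.

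Itga2 encodes the alpha chain of the alpha 2 beta 1 collagen receptor, best known from platelets and epithelia. In the S6K1 series its level was 0.905, 1.19 and 1.92 CPM in the WT EV libraries, from 13 to 21 counts, and 34.0, 59.6 and 45.5 CPM in the WT RAS libraries. In the S6K1/S6K2 series it was 3.06, 0.884 and 2.10 CPM with EV and 53.9, 83.1 and 51.3 CPM with RAS. The gene was low in every EV library, at 10 to 35 counts, and moderately expressed in every RAS library, without overlap. Itga2 rose by 5.13 ± 0.46 (SE) on the log2 scale, a 35.1-fold change, in the S6K1 series (adjusted p = 0.000255, edgeR) and by 4.95 ± 0.35 in the S6K1/S6K2 series (adjusted p = 5.34e-05, edgeR).

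Itga11 encodes the alpha chain of the fibrillar collagen receptor alpha 11 beta 1, which is typical of mesenchymal cells, and it took the opposite course. Its level was 202, 284 and 503 CPM in WT EV against 18.5, 43.0 and 69.4 CPM in WT RAS of the S6K1 series. In the second series it was 81.7, 92.2 and 339 CPM against 20.7, 34.8 and 81.0 CPM. Every RAS library lay below every EV library, although in the second series the highest RAS value and the lowest EV value nearly met. Itga11 fell by 2.92 ± 0.64 on the log2 scale in the S6K1 series (adjusted p = 0.0171, edgeR). That call was lost without WT RAS replicate 1 (adjusted p = 0.0518, edgeR) or WT RAS replicate 2 (0.0727). Within the S6K1/S6K2 series the log2 fold change was -1.91 ± 0.78 (adjusted p = 0.0981, edgeR), and with the replicate number as a block Itga11 fell by 1.83 (adjusted p = 0.00153). That block also held the DKO RAS libraries, which share only a number with the WT libraries. Within same-numbered pairs the RAS level was 0.0915, 0.152 and 0.138 of the EV level in the S6K1 series and 0.254, 0.377 and 0.239 of it in the other. The library numbered 1 was the lowest of its group and the library numbered 3 the highest in all 6 groups. This order is a description only. The number is not known to link the 2 series, and DKO RAS libraries share only a number with their WT controls.

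Itga1, whose product with beta 1 binds basement membrane and fibrillar collagens, differed between the series. Within the S6K1 series it stood at 54.8, 82.3 and 102 CPM in WT EV and at 26.0, 35.4 and 46.0 CPM in WT RAS, and in the S6K1/S6K2 series at 27.6, 36.0 and 71.9 CPM and at 38.6, 53.7 and 61.1 CPM. The groups did not overlap in the first series and overlapped in the second. Itga1 fell by 1.16 ± 0.30 on the log2 scale in the S6K1 series (adjusted p = 0.0354, edgeR), and this call was lost without WT EV replicate 2 or 3, WT RAS replicate 1 or 2, or KO RAS replicate 2 (adjusted p between 0.0580 and 0.116, edgeR). The log2 fold change in the S6K1/S6K2 series was 0.18, with a 95% interval from -0.58 to 0.94.

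Both laminin-binding alpha chains rose in both series. Itga3, an alpha chain common in epithelia, measured 10.7, 15.9 and 21.6 CPM with EV and 39.4, 53.8 and 72.6 CPM with RAS in WT cells of the S6K1 series. In the S6K1/S6K2 series it measured 12.3, 14.6 and 21.1 CPM with EV and 79.3, 104 and 101 CPM with RAS. No RAS library of WT cells overlapped the EV libraries. The log2 rise was 1.79 ± 0.30 (adjusted p = 0.00469, edgeR) and 2.57 ± 0.27 (adjusted p = 0.000280).

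Itga6 pairs with beta 1 or beta 4 in laminin receptors, the latter in the hemidesmosomes of epithelial cells. It stood at 64.4, 74.6 and 36.7 CPM in WT EV and at 219, 258 and 309 CPM in WT RAS of the S6K1 series. In the second series it was at 35.7, 19.1 and 24.3 CPM and at 318, 409 and 303 CPM. The groups were far apart in both series. Itga6 rose by 2.16 ± 0.32 on the log2 scale (adjusted p = 0.00247, edgeR) and by 3.70 ± 0.31 (adjusted p = 0.000123).

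Epithelial markers moved in the same libraries, and were not the only marker list to do so. Of the list of 7, Epcam, Krt8, Krt18 and Cldn4 were tested and all 4 rose with RAS in both series. Cdh1, Krt5 and Krt14 did not pass the filter on low counts. Over all genes 7.15% were higher in the S6K1 series and 13.5% in the S6K1/S6K2 series. The summed level of the list was 1.33 to 10.3 CPM in EV libraries and 68.0 to 195 CPM in RAS libraries, most of it from the simple keratin Krt18, which averaged 128 CPM in WT RAS of the S6K1 series. Krt5 and Krt14, the keratins of stratified epithelium, had at most 1 count in any RAS library. Whether these markers have a part in the rise of Itga2, Itga3 and Itga6 was not tested.

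Itgb3, the beta chain that pairs with alpha v in fibroblasts, rose more than Itgb1, the other beta chain among the members. Its level was 54.8, 66.8 and 38.1 CPM with EV and 288, 430 and 265 CPM with RAS in WT cells of the S6K1 series. The second series gave 8.73, 18.5 and 21.8 CPM with EV and 292, 264 and 159 CPM with RAS. The RAS levels were of the same order in both series, whereas the EV levels of the S6K1/S6K2 series all lay below those of the S6K1 series. Itgb3 rose by 2.62 ± 0.34 on the log2 scale, or 6.15-fold (adjusted p = 0.00148, edgeR), and by 3.87 ± 0.36, or 14.6-fold (adjusted p = 0.000184).

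Its partner Itgav moved less. In the S6K1 series Itgav was at 481, 564 and 514 CPM in WT EV and 453, 517 and 738 CPM in WT RAS, which overlapped, and the log2 fold change was 0.13 with a 95% interval from -0.36 to 0.62. Within the S6K1/S6K2 series it was at 255, 312 and 425 CPM against 594, 756 and 770 CPM. Here every RAS library was above every EV library and Itgav rose by 1.10 ± 0.21 (adjusted p = 0.00541, edgeR).

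Itgb1, the common beta chain, and Itga5, its fibronectin-binding partner, changed by smaller steps. Itgb1 stood at 4071, 3885 and 4151 CPM with EV and at 4662, 5039 and 5938 CPM with RAS in WT cells of the S6K1 series, and at 1504, 2077 and 3571 CPM against 5623, 4830 and 6303 CPM in the S6K1/S6K2 series. The groups did not overlap in either series, and the EV libraries of the S6K1/S6K2 series were more spread than those of the S6K1 series. The log2 fold change of Itgb1 was 0.37 ± 0.13 in the S6K1 series (adjusted p = 0.105, edgeR), where the block by replicate number gave a rise of 0.36 (adjusted p = 0.0213). In the S6K1/S6K2 series Itgb1 rose by 1.23 ± 0.32 (adjusted p = 0.0212, edgeR). This call was lost without WT EV replicate 2 (adjusted p = 0.0792, edgeR) or WT RAS replicate 3 (0.0688).

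Itga5 was at 446, 442 and 428 CPM in WT EV and 530, 589 and 655 CPM in WT RAS of the S6K1 series, a log2 fold change of 0.43 ± 0.15 (adjusted p = 0.0976, edgeR). With the replicate block Itga5 rose by 0.43 (adjusted p = 0.0238, edgeR). In the second series it was at 189, 315 and 469 CPM against 698, 512 and 674 CPM, and rose by 0.95 ± 0.29 (adjusted p = 0.0360, edgeR). The groups were separate in both series. The second call was the least firm of the 7, being lost without WT EV replicate 1 or 2, any 1 of the 3 WT RAS libraries, or DKO RAS replicate 2 (adjusted p between 0.0541 and 0.102, edgeR).

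Itga8, whose product with beta 1 binds nephronectin and fibronectin, was at 87.6, 137 and 107 CPM in WT EV and at 29.9, 50.0 and 49.0 CPM in WT RAS of the S6K1 series. Within the S6K1/S6K2 series both groups were low, at 40.7, 26.5 and 51.4 CPM and at 38.0, 46.0 and 43.7 CPM. Only the first series separated EV from RAS libraries. Itga8 fell by 1.36 ± 0.31 on the log2 scale there (adjusted p = 0.0196, edgeR), a call lost without WT EV replicate 2, WT RAS replicate 1 or WT RAS replicate 2 (adjusted p between 0.0503 and 0.0741, edgeR). In the S6K1/S6K2 series the log2 fold change was 0.11, with a 95% interval from -0.56 to 0.77.

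**Figure D2:**
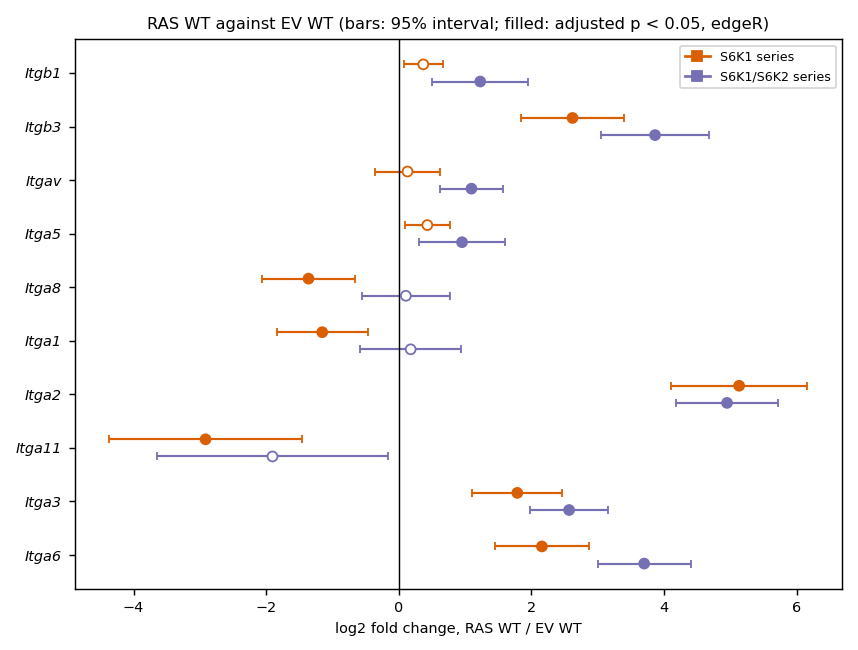
Log2 fold change of the 10 integrin genes between WT RAS and WT EV (x axis) in the S6K1 series (orange) and the S6K1/S6K2 series (purple), with 95% intervals, and filled circles for an adjusted p under 0.05 by edgeR. Itga2, Itga3, Itga6 and Itgb3 lie to the right in both series, Itga11 lies to the left, and 9 of the 10 estimates are higher in the S6K1/S6K2 series.

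Counted by library, 9 of 10 members had no overlap between WT RAS and WT EV in the S6K1 series, the exception being Itgav, against 30.9% of all genes tested. In the second series it was 8 of 10, the exceptions being Itga1 and Itga8, against 42.5%. With the replicate block 9 of 10 members changed in the S6K1 series, against 36.2% of all genes, and 8 of 10 in the S6K1/S6K2 series, against 28.7%. Without WT RAS replicate 1, or without WT RAS replicate 2, the S6K1 series gave 4 members in place of 7, namely the 4 that rose. Over all genes these fits called 1185 of 14336 and 1043 of 14233, in place of 1859 of 14036.

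The RAS effects of the series were also compared directly, in a fit over all 18 libraries. The difference was positive for 9 of 10 members, all but Itga2, with a median of 0.98 on the log2 scale. None of the 10 had an adjusted p under 0.05 by edgeR, against 0% of 14483 genes. At an unadjusted p under 0.05 it was 6 members (Itga1, Itga6, Itga8, Itgav, Itgb1 and Itgb3), against 12.6% of all genes, and DESeq2 gave 0 members and 143 of all genes. The loss effects differed for 0 of 10 members (lowest unadjusted p = 0.0263, for Itga3), against 0.0069% of all genes, or 1 of 10 against 1.23% at an unadjusted p under 0.05. With replicate number as a block within each series only the RAS effect on Itga1 differed, by 1.38 (adjusted p = 0.0432, edgeR), against 0.4% of genes. That block also tied DKO RAS libraries to WT libraries with which they share only a number. Without WT EV replicate 3 of the S6K1/S6K2 series, which had the highest Itga1 and Itgb1 of its group, 2 members differed, Itga1 by 1.84 (adjusted p = 0.0469, edgeR) and Itgb1 by 1.27 (adjusted p = 0.0409). In that fit 290 of all 14806 genes differed, against 0 with all libraries.

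Several members differed more between the series in the EV libraries than in the RAS libraries. On a scale set over all 18 libraries, Itgb1 in WT EV ran from 1463 to 3515 CPM in the second series and from 3946 to 4174 CPM in the S6K1 series, while the WT RAS ranges were 4780 to 6212 and 4848 to 5964 CPM. For Itgb3 the EV ranges were 8.50 to 21.4 and 38.3 to 67.8 CPM, and for Itga8 26.1 to 50.6 and 89.7 to 139 CPM. Itga2 and Itga3 did not show this, with mean EV levels of 1.97 and 15.7 CPM in the S6K1/S6K2 series and 1.36 and 16.3 CPM in the S6K1 series. The cells of the 2 series came from different breedings, and the labels do not say whether the series were handled together. Genotype background and handling therefore cannot be told apart, and these level differences were given no test.

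Loss of the S6 kinases under RAS left no integrin member past the threshold by edgeR without the replicate block in either series, and 1 member, Itga3 in KO RAS, with the block. Within the S6K1 series 0 of 10 members differed between KO RAS and WT RAS, against 0.00712% of all genes tested, and the median log2 fold change was 0.21. Within the S6K1/S6K2 series it was 0 of 10 between DKO RAS and WT RAS, against 0.0216%, with a median of -0.19 and all 10 estimates below 0. At an unadjusted p under 0.05 the counts were 1 of 10 against 6.86% of all genes in the S6K1 series, and 0 of 10 against 1.29% in the S6K1/S6K2 series. DESeq2 gave 0 members in both. The 95% intervals differed in width between members. The widest were those of Itga11, from -1.69 to 1.06 for KO and from -2.66 to 0.82 for DKO, and the narrowest those of Itgb1 for KO (-0.09 to 0.50) and Itgav for DKO (-0.54 to 0.39).

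Itga3 came closest. It stood at 39.4, 53.8 and 72.6 CPM in WT RAS and at 92.8, 126 and 82.9 CPM in KO RAS, and was the 1 member of 10 without overlap between these groups, against 8.02% of all genes. The log2 fold change was 0.86 ± 0.29, with a 95% interval from 0.21 to 1.51 (adjusted p = 0.587, edgeR). Replicate numbers paired the S6K1 samples, and with the number as a block Itga3 rose by 0.91 in KO RAS (adjusted p = 0.0336, edgeR), the only one of the 10 to do so, against 4.15% of genes. A count of 1 among 10 members is not far from these shares of all genes and does not set the members apart. The KO level was 2.35, 2.34 and 1.14 times the WT level within the 3 pairs. In the S6K1/S6K2 series Itga3 was at 115, 79.5 and 62.4 CPM in DKO RAS, within and around the WT RAS values of 79.3, 104 and 101 CPM, with a log2 fold change of -0.15 ± 0.25. The difference between the KO and the DKO effect on Itga3 was -0.99 ± 0.40 (unadjusted p = 0.0263, adjusted p = 1.00, edgeR).

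Itga6 followed the same order without passing any test. It was at 219, 258 and 309 CPM in WT RAS and 379, 588 and 293 CPM in KO RAS, a log2 fold change of 0.68 with a 95% interval from -0.00345 to 1.37. In the second series it was at 318, 409 and 303 CPM in WT RAS and 477, 314 and 238 CPM in DKO RAS. The overlapping groups there gave a log2 fold change of -0.000246, with a 95% interval from -0.62 to 0.62.

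For the other members the KO and DKO groups overlapped WT RAS, as did all 10 members in DKO RAS (0 of 10 without overlap, against 6.07% of all genes). Itgb1 ran from 5808 to 6170 CPM in KO RAS and from 3820 to 6306 CPM in DKO RAS, and Itga5 from 613 to 893 and from 434 to 580 CPM. Itgav ran from 523 to 809 CPM in KO RAS and from 577 to 788 CPM in DKO RAS, Itgb3 from 243 to 500 and from 175 to 272 CPM, and Itga2 from 35.6 to 85.2 and from 46.8 to 52.9 CPM. The chains that fell with RAS in the S6K1 series stayed low without the kinases. Itga11 was at 12.9, 28.9 and 63.5 CPM in KO RAS and at 6.44, 17.0 and 48.6 CPM in DKO RAS, Itga1 ranged from 24.9 to 47.2 and from 32.5 to 55.5 CPM, and Itga8 from 21.7 to 49.2 and from 21.3 to 47.6 CPM.

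**Figure D3:**
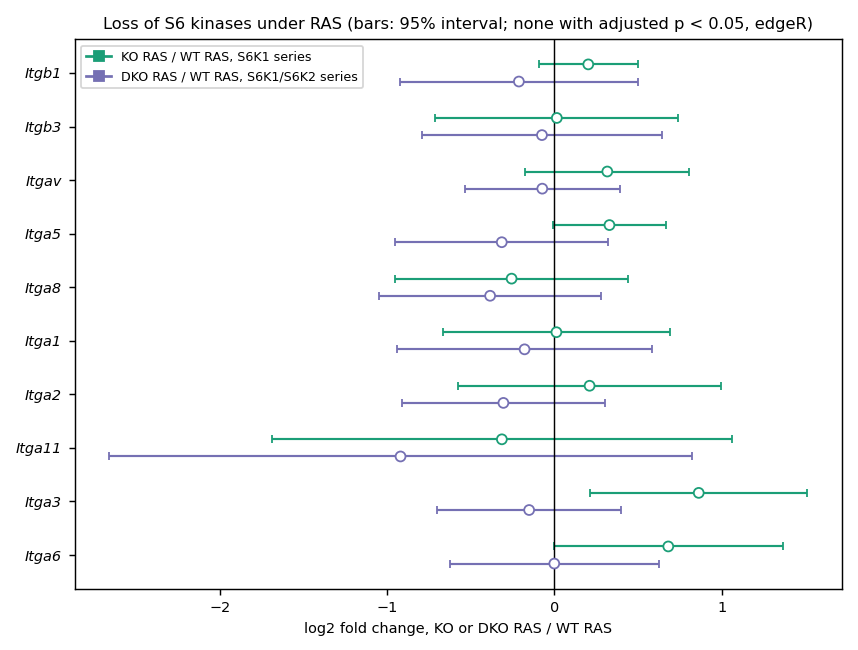
Log2 fold change of the 10 integrin genes between KO RAS and WT RAS in the S6K1 series (green) and between DKO RAS and WT RAS in the S6K1/S6K2 series (purple), on the x axis, with 95% intervals. All circles are open because no member had an adjusted p under 0.05 by edgeR without the replicate block, and the interval of Itga3 in the KO comparison, from 0.21 to 1.51, is the only one that leaves out 0.

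Macrophage markers stood lower without the kinases. Their summed level was 656 to 3168 CPM in WT RAS and 230 to 771 CPM in KO RAS, and all 12 had a log2 fold change below 0 with a median of -2.09. None passed the threshold by edgeR without the block, against 0.00712% of all genes. All 12 had an unadjusted p under 0.05, against 6.86% of all genes, and all 12 fell with the block, where 4.15% were called. Within the S6K1/S6K2 series the sums were 174 to 902 CPM in WT RAS and 74.2 to 216 CPM in DKO RAS. Their part in the Itga3 result was not tested.

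Divided by the exon length of each gene, the levels can be set beside each other. Itgb1 alone made up 79.4% ± 2.0 (SD, n = 3) of the summed per-length level of the 10 members in WT EV and 80.3% ± 1.2 in WT RAS of the S6K1 series, and 78.7% ± 0.3 and 79.9% ± 1.9 in the S6K1/S6K2 series. Its per-length level was 3.64 to 5.35 times the sum of the 8 alpha members in all 18 libraries. Among the alpha chains alone, Itga5 had the highest mean share in every group, with 41.0% ± 6.3 in WT EV and 53.0% ± 3.6 in WT RAS of the S6K1 series. In 1 library, WT EV replicate 3 of the S6K1 series, Itga11 (35.1%) and Itga5 (35.0%) were level.

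The rest of the 8 alpha members changed places. In WT EV of the S6K1 series Itga11 (25.2% ± 8.7) and Itgav (19.7% ± 2.2) followed Itga5, with overlapping ranges, then Itga8 (6.15%), Itga1 (3.97%), Itga6 (2.70%), Itga3 (1.12%) and Itga2 (0.13%). In WT RAS the order after Itga5 was Itgav (20.5% ± 2.0), Itga6 (11.3% ± 0.1), then Itga2 (4.30%), Itga3 (3.72%) and Itga11 (3.15%), whose ranges overlapped, then Itga8 (2.29%) and Itga1 (1.72%). In the S6K1/S6K2 series Itga11 went from 19.3% ± 7.7 to 2.89% ± 1.85 and Itga6 from 2.25% ± 1.54 to 12.8% ± 2.6. Itga5 was at 47.9% ± 5.8 and 47.8% ± 7.3 there. The mean shares of Itga1, Itga8 and Itga11 were lower with RAS and those of Itga2, Itga3 and Itga6 higher, in both series. A share also depends on the sum. In the S6K1/S6K2 series the levels of Itga1 and Itga8 were not lower with RAS, with log2 fold changes of 0.18 and 0.11. The summed alpha level there was 98.7 to 236 CPM per kb in WT EV and 290 to 319 in WT RAS. With the length of the longest transcript in place of all exons, Itga6 took 18.9% in WT RAS of the S6K1 series, more than 1.5 times the share given above, because its annotated exons sum to more than any 1 transcript. That length also turned some of the order, with Itgav (25.6%) above Itga11 (22.3%) and Itga6 (4.81%) above Itga1 (4.54%) in WT EV of the S6K1 series, and Itga3 (3.49%) above Itga2 (3.45%) in WT RAS. By the same length Itga5 took 35.0% in WT EV and 42.5% in WT RAS of the S6K1 series. In the S6K1/S6K2 series it took 41.2% and 37.6%.

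**Figure D4:**
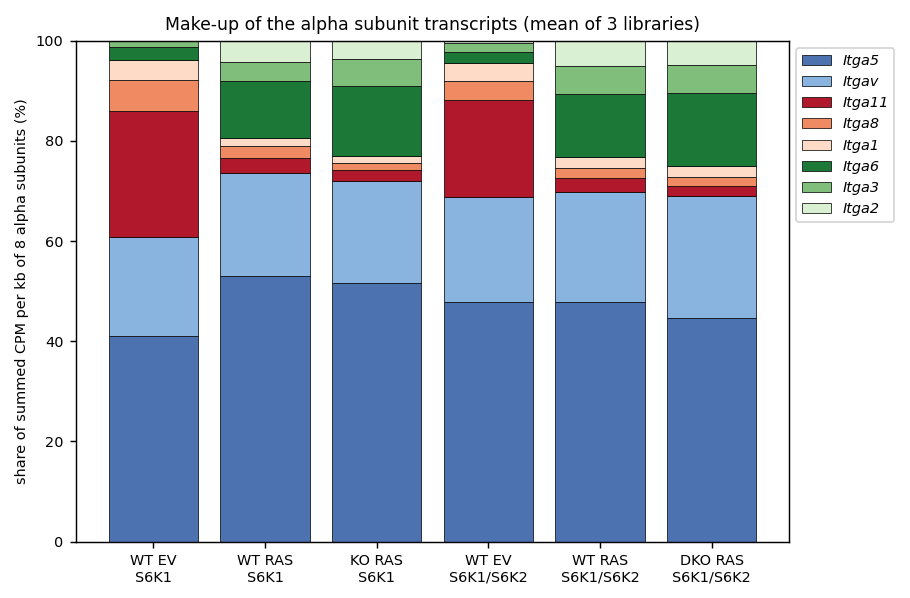
Share of each alpha chain in the summed per-length level (CPM per kb of exons, in percent, y axis) of the 8 alpha members, as the mean of 3 libraries in each of the 6 groups. Itga11 takes 25.2% and 19.3% in the EV groups and 3.15% or less in the RAS groups, Itga6 goes from 2.70% and 2.25% to between 11.3% and 14.5%, and Itga5 has the largest mean share in all 6 groups.

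Across the 18 libraries, with levels centred within each series, the members differed in how closely they varied together. Itga6 correlated with Itgb3 at a Pearson r of 0.95, Itga2 with Itga6 at 0.95 and Itga5 with Itgb1 at 0.94, and Itga6 against Itga11 at -0.80. Itga1, Itga8 and Itga11 correlated with each other at 0.75 to 0.84, while Itga1 was near 0 with Itga5 (-0.0451) and Itgb1 (0.0516). These values describe libraries that share the RAS contrast and are not tests. Of the 13550 genes tested in both series, the closest in pattern to Itga2 was Nmt2 (r = 0.99), to Itga3 Cgnl1 (0.99), to Itga6 Mapk6 (0.99) and to Itgb3 Sh3bgrl2 (0.99), and for Itga5 the closest gene of all was Itgb1.

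Among the 17 other integrin subunit genes, 12 were tested in the S6K1 series and 11 in the S6K1/S6K2 series. With RAS in WT cells 4 of 12 changed in the first series, 2 higher and 2 lower, against 13.2% of all genes tested. In the second series it was 4 of 11, all higher, against 26.3%. Itgb4, the beta chain that pairs with alpha 6, rose in both, by 1.41 ± 0.33 on the log2 scale (adjusted p = 0.0217, edgeR) and by 2.10 ± 0.37 (adjusted p = 0.00360). Its levels were low in every library, between 1.67 and 3.45 CPM with EV and between 4.21 and 19.4 CPM in WT RAS. Itgb7, a leukocyte chain, also rose in both (adjusted p = 0.00236 and 0.00227, edgeR), to between 1.11 and 3.76 CPM in WT RAS. No fold is given for it because no EV library held more than 3 counts.

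Itga9 fell by 1.05 ± 0.20 (adjusted p = 0.00808, edgeR) and Itgb5, another partner of alpha v, by 0.60 ± 0.11 (adjusted p = 0.00700), both in the S6K1 series. Itgb5 went from 528, 463 and 551 CPM to 355, 315 and 347 CPM there, so the partners Itgb3 and Itgb5 moved in opposite directions. In the second series Itgb5 was at 311, 382 and 474 CPM with EV and at 359, 293 and 311 CPM with RAS, which overlapped.

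Itga4, whose receptor with beta 1 binds VCAM-1 and fibronectin, rose by 2.50 ± 0.27 in the S6K1/S6K2 series (adjusted p = 0.000375, edgeR), from 13.8, 14.5 and 19.9 CPM to 115, 87.5 and 70.5 CPM. In the S6K1 series it was already at 172, 290 and 94.9 CPM with EV and at 202, 299 and 186 CPM with RAS. Itga7, a laminin-binding chain best known from muscle, rose by 1.15 ± 0.27 in the S6K1/S6K2 series (adjusted p = 0.0127, edgeR). With loss of the kinases none of the other integrins changed in either series by edgeR. At an unadjusted p under 0.05 it was 3 for KO, against 6.86% of all genes, and 0 for DKO, against 1.29%. With the replicate block 3 fell in KO RAS, where 4.15% of all genes were called. They were Itgal, Itgam and Itgb2, the chains of leukocyte integrins, of which Itgam and Itgb2 are in the macrophage marker list.

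Ligands of these receptors were followed in a list of 31 matrix and cell surface genes, of which 30 were tested in each series. With RAS in WT cells 11 changed in the S6K1 series, 2 higher and 9 lower, against 13.2% of all genes tested. The median log2 fold change of the 30 was -0.45, beside 0.00 over all genes. The S6K1/S6K2 series had 19 changed genes, 8 higher and 11 lower, against 26.3% of all genes. The median of the 30 there was -0.19, beside -0.02. The fibrillar collagens that Itga11 and Itga2 products bind were among those that fell.

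Col1a1 fell by 1.90 and 2.06 on the log2 scale in the 2 series and Col3a1 by 1.87 and 2.23, and Fbn1, the microfibril protein fibrillin, fell by 1.82 in the first (adjusted p = 0.00564, edgeR). Postn fell by 2.75 in the second (adjusted p = 0.0104, edgeR). Col1a1 had 10516 to 13582 CPM in WT EV and 2820 to 3682 CPM in WT RAS of the S6K1 series. Npnt, the ligand of alpha 8 beta 1, rose by 2.78 (adjusted p = 0.000588, edgeR) and 2.41 (adjusted p = 0.000184), and Spp1, the ligand osteopontin of alpha v beta 3, rose by 2.67 in the S6K1/S6K2 series (adjusted p = 0.00889, edgeR), from 804, 3660 and 5754 CPM to 19549, 26231 and 19479 CPM. The laminin chain Lamb3 rose in both series (adjusted p = 0.0448 and 0.00610, edgeR) but stayed at 1.88 CPM or less in WT RAS, with no more than 2 counts in any EV library. Fn1, encoding fibronectin, overlapped between the groups, with a log2 fold change of -0.47 ± 0.37 and 0.69 ± 0.45. Vtn had 0 counts in all libraries. None of the 30 ligands changed with loss of the kinases by edgeR. At an unadjusted p under 0.05 it was 2 for KO, against 6.86% of all genes, and 1 for DKO, against 1.29%. With the replicate block only Vcam1 fell in KO RAS, by 0.70 (adjusted p = 0.0441, edgeR), where 4.15% of all genes were called.

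The cytoplasmic adhesion complex that integrin tails recruit was followed in a list of 41 genes, 40 of them tested. With RAS in WT cells 11 changed in the S6K1 series, 5 higher and 6 lower, against 13.2% of all genes tested. The median log2 fold change of the 40 was 0.02, beside 0.00 over all genes. The S6K1/S6K2 series had 17 changed genes, 14 higher and 3 lower, against 26.3% of all genes. The median of the 40 there was 0.37, beside -0.02. Parvb, encoding the actin linker beta-parvin, rose by 2.09 ± 0.16 (adjusted p = 0.000127, edgeR) and 2.95 ± 0.25 (adjusted p = 0.000123), and Pxn, encoding the scaffold paxillin, by 1.79 ± 0.18 (adjusted p = 0.000387) and 1.95 ± 0.20 (adjusted p = 0.000257).

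Arhgef7 rose by 0.90 in the S6K1 series (adjusted p = 0.0123, edgeR), and Apbb1ip, a Rap1 effector that promotes talin recruitment, by 1.30 in the S6K1/S6K2 series (adjusted p = 0.00327). Tns1, encoding tensin 1 of fibrillar adhesions, fell by 1.51 and 1.01 (adjusted p = 0.00721 and 0.00275, edgeR), and the talin gene Tln2 by 1.37 and 0.72 (adjusted p = 0.00305 and 0.0116). Lims2 fell by 1.52 in the S6K1 series (adjusted p = 0.00133, edgeR) and Tns3 by 0.81 in the S6K1/S6K2 series (adjusted p = 0.00637). None of the 40 changed with loss of the kinases by edgeR. At an unadjusted p under 0.05 it was 4 for KO, against 6.86% of all genes, and 0 for DKO, against 1.29%. With the replicate block the leukocyte kindlin Fermt3 alone fell in KO RAS, by 1.99 (adjusted p = 0.000222, edgeR), where 4.15% of all genes were called.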

How the data were processed

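RNA-seq libraries of 18 MEF cultures were analysed from raw counts per gene that the authors deposited. The study's methods give single-end stranded libraries mapped to mm9 with TopHat and counted with HTSeq. The submitters' processing notes name CASAVA, STAR 2.7.1a, DESeq2 1.28.1 and mm10, so aligner and build are not settled. Symbols were found for 32589 of 55401 identifiers and the other 22812 are not in the NCBIM37 annotation. Positions were therefore given in RefSeq GRCm38.p6, and exon lengths were taken from GENCODE vM1. A library's floor was 3 counts, and floors cover counting error only. No replicate pair agreed within sampling noise (lowest chi-square per degree of freedom 7.98).

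Groups followed the labels. Counts were tested in R 4.3.3 with edgeR 4.0.16 (filterByExpr with minimum count 10, TMM, two-sided quasi-likelihood test, Benjamini-Hochberg over all genes tested, threshold 0.05), with group as the only term. Each series was fitted over its 9 libraries, and differences between series over all 18. CPM were scaled within a series. Correlations used log2(CPM + 0.5). The procedure was tested on simulated data. Replicate numbers come from the labels. The deviations of same-numbered samples correlated at 0.725, 0.467 and 0.679 (RAS, S6K1 series), 0.370, 0.291 and 0.321 (RAS, S6K1/S6K2 series), 0.725, 0.419 and 0.630 (KO) and 0.271, 0.472 and -0.042 (DKO), so the numbers were taken to pair the samples in all but the DKO comparison. Alternatives were DESeq2 1.42.0, other scalings and filters, the replicate block, other sets of libraries and leaving out each library. The block covered all 9 libraries of a series, so in the S6K1/S6K2 series it also tied DKO RAS libraries to WT libraries by number. All 10 members were named in every comparison, with each changed gene of the other integrins and up to 3 genes in each direction of the ligand and adhesion lists. Fn1, Vtn and single marker genes were added after their values were seen. The members and lists were chosen with earlier results of these data known.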

Additional observations from a re-analysis of the deposited data

Results flagged for a closer look

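Itga1 was singled out because its RAS effect differed between the series by a test of the difference itself. With the replicate number as a block within each series, the effect in the S6K1/S6K2 series exceeded that in the S6K1 series by 1.38 on the log2 scale (adjusted p = 0.0432, edgeR). Without the block the difference was 1.32 ± 0.49 with an adjusted p of 0.318 (edgeR). The block also tied the DKO RAS libraries to same-numbered WT libraries, with which they share only a number, so the block result carries that limit. Within same-numbered pairs Itga1 was lower with RAS in 3 of 3 pairs of the S6K1 series and higher in 2 of 3 pairs of the S6K1/S6K2 series.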

How the results depend on the processing

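Counts of members with a changed level held within 1.5 times their value under all alternatives run, with these exceptions. For the RAS effect between series the count was 0, and it was 2 with no filter on low counts (Itga6 and Itga8, adjusted p = 0.0141 and 0.0280, edgeR) and 1 with the replicate block. For KO it was 1 with the replicate block. Leaving out 1 library gave 4 to 7 members for RAS in the S6K1 series, 5 to 7 in the S6K1/S6K2 series, 0 to 2 for the RAS effect between series and 0 for KO, DKO and the loss effect between series. DESeq2 also called Itga5 (adjusted p = 0.0444) and Itgb1 (0.00705) in the S6K1 series, the fit without a filter Itga11 in the S6K1/S6K2 series (0.00183, edgeR), and the fit on 6 libraries lost Itga5 there (0.0661). For DKO, where same-numbered samples share only a number, the block left 0 members and took all genes called from 3 to 8. Over all genes DESeq2 called 63 for KO and 10 for DKO in place of 1 and 3, no filter 108 and 11, the block 583 for KO, and the fit over 18 libraries 4 and 7. For the RAS effect between series DESeq2 called 143 of 14483 genes and no filter 204 of 30065, in place of 0. For RAS in the S6K1 series the block called 5085 in place of 1859. The causes were not tested.

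Signs turned only for log2 fold changes that were not called. Itga6 in DKO was 0.00192 with DESeq2, 0.00194 with its size factors, 0.0150 with no filter and 0.00590 over 18 libraries. Itga1 in KO was -0.00701 with upper-quartile scaling, -0.00503 on 6 libraries and -0.00718 over 18, and Itgb3 in KO was -0.0172, -0.0056 and -0.0145, and -0.0287 with the replicate block. With 1 library left out, KO ran from -0.23 to 0.24 for Itga1, -0.29 to 0.44 for Itga2, -1.06 to 0.19 for Itga11 and -0.41 to 0.25 for Itgb3. DKO ran from -0.36 to 0.0119 for Itga1, -0.42 to 0.0337 for Itga3, -0.31 to 0.21 for Itga6, -0.20 to 0.0263 for Itgav and -0.30 to 0.10 for Itgb3. RAS ran from -0.10 to 0.27 for Itgav in the S6K1 series, and from -0.0798 to 0.70 for Itga1 and -0.11 to 0.35 for Itga8 in the S6K1/S6K2 series. The RAS effect between series ran from -0.55 to 0.23 for Itga2, and the loss effect between series from -0.37 to 0.0682 for Itga1, -0.72 to 0.0116 for Itga2, -0.48 to 0.18 for Itga8, -1.63 to 0.15 for Itga11 and -0.31 to 0.36 for Itgb3. Depth limits Itga2 in EV, at 10 to 35 counts a library, and no other member.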
